A study of Mus musculus with 2 samples.

Results

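AT1 cells (alveolar type 1 cells) are the thin epithelial cells across which the lung exchanges gas. They were taken here from single-cell RNA sequencing of whole mouse lung, and 444 of 27974 kept cells met the rule. The rule selected cells on measured values. A member held at least 5 unique molecular identifiers (UMIs, 1 per captured transcript) of Ager, Hopx, Rtkn2, Akap5 and Clic5 together, making up at least 0.5% of its UMIs. It also had under 3% Sftpc, under 2% Scgb1a1 and 0 Ptprc UMIs, which set aside AT2 cells, club cells and leukocytes. Levels of these 8 genes within the members are therefore descriptions of the choice, and support nothing.

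Both groups of mice carried floxed alleles of Lkb1 (gene symbol Stk11). The control mice were Lkb1f/f without Cre, and the others were Nkx2.1 Cre;Lkb1f/f, whose library is called the Cre library. All mice were 5 weeks old, and each library pooled 3 of them. The driver follows Nkx2-1, a transcription factor of lung epithelial progenitors that is also active in forebrain and thyroid. The labels give no measure of how many AT1 cells recombined. Each genotype thus has 1 library and no replicates, so nothing could be tested, and an effect of genotype cannot be told apart from one of the animals, pooling or library preparation.

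AT1 cells cover most of the alveolar surface, lie on a basement membrane shared with the capillaries and arise from progenitors that they have in common with AT2 cells. They are known as a source of VEGF-A for the capillaries and of PDGF-A for fibroblasts, and they move water and ions through aquaporins and epithelial sodium channels. Their flat shape depends on caveolae, tight junctions and YAP and TAZ signalling. LKB1 is a kinase that activates AMPK and its relatives, among them the salt-inducible kinases, which hold back the CRTC coactivators of CREB.

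The control library held 134 AT1 cells with 298504 UMIs and the Cre library 310 with 728327 UMIs. These members were shallow. Their medians were 936.5 and 966.5 UMIs, and 54.5% and 51.3% of them had under 1000. A minority was deep. The 20 control cells (14.9%) and 57 Cre cells (18.4%) with at least 5000 UMIs gave 60.1% and 60.7% of all member UMIs, so summed levels mostly describe those cells. The 10 deepest cells alone gave 33.8% of the control and 15.0% of the Cre UMIs. Of the barcodes, 68 occurred in both libraries and 0 of these were members.

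**Figure D1:**
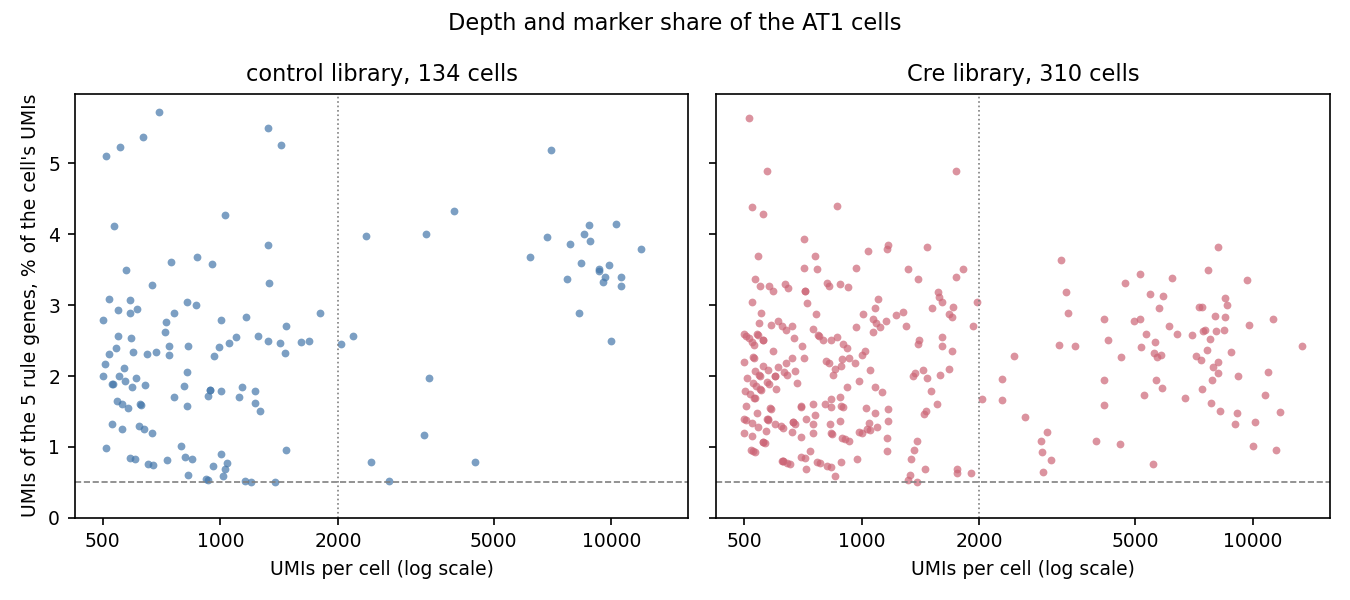
Each point is an AT1 cell of the control (left, 134 cells) or Cre library (right, 310 cells). The horizontal axis is UMIs per cell on a log scale, the vertical axis the percentage of those UMIs from the 5 rule genes. The dashed line marks the limit of 0.5% and the dotted line 2000 UMIs. Most cells lie under 2000 UMIs, and 30 control and 81 Cre cells lie at or above it.

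Markers that the rule did not use were high in the members. The summed level of 15 further AT1 markers, among them Aqp5, Pdpn, Emp2 and Vegfa, was 27742 counts per 1000000 UMIs (CPM) in control and 24662 CPM in Cre members. In AT2 cells, picked by their own rule (1419 control and 1672 Cre cells), it was 2121 and 2223 CPM, and in B cells 213 and 306 CPM. The 5 ciliated markers stood at 16.8 and 13.7 CPM in members, with 3 of the 5 at 0 in each library. The 11 AT2 markers summed to 2489 and 2099 CPM in members against 303985 and 225426 CPM in AT2 cells. The rule limits Sftpc, which is on this list, and AT2 cells were picked on Sftpc and other genes of the list. This contrast was thus set by the choice of cells and supports nothing. B cells held 5630 and 5815 CPM of these markers. Sftpc is limited in members but not in B cells, and Napsa, also on the list, was found more often in B cells than in members. B cells thus give no background level for this sum, and its part from free RNA was not tested.

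Markers of several other cell types differed between the members of the libraries. The 5 endothelial markers Pecam1, Cdh5, Cldn5, Tie1 and Egfl7 summed to 1075 CPM in control and 408 CPM in Cre members. In all, 23 control and 22 Cre members carried 3 or more UMIs of Pecam1, Cdh5 and Cldn5. In those 23 control cells Igfbp2 was at 140.0 CPM and Aqp5 at 210 CPM, against 2382 and 2527 CPM in the other 111. The 6 macrophage and myeloid markers summed to 1963 and 336 CPM, and the 3 erythroid markers to 291 and 3402 CPM. The 6 fibroblast markers summed to 248 and 512 CPM, the 5 club cell markers to 1866 and 1112 CPM and the 6 lymphocyte markers to 46.9 and 13.7 CPM. In B cells the myeloid, erythroid, fibroblast and club sums differed in the same direction, at 4908 and 2671, 4260 and 16616, 432 and 924, and 3930 and 1133 CPM. Scrublet called 0 members doublets. Which part these other cells' transcripts have in the differences below was not tested.

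Close to the limits of the rule the control library held few clear AT1 cells. The 12 control members with only 5 or 6 marker UMIs had 102 CPM of Igfbp2, 0 CPM of Aqp5 and 814 CPM of the endothelial gene Pecam1. The 32 control cells just outside, with 3 or 4 marker UMIs, had 102, 50.9 and 1018 CPM. In the Cre library the 21 members just inside had 439, 366 and 219 CPM of the same genes, and the 17 cells just outside had 301, 100.5 and 703 CPM.

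AT1 cells made up a larger share of the Cre library. They were 1.04% (exact 95% interval 0.874 to 1.23) of 12863 control cells and 2.05% (1.83 to 2.29) of 15111 Cre cells, 1.97 times as large a share (1.60 to 2.43). Of epithelial cells by rule they were 7.39% (134 of 1814) and 13.7% (310 of 2267), a ratio of 1.85 (1.51 to 2.28). All intervals given are exact, are for 95% and cover counting error only, not the spread between mice. The share was selected on the marker genes, whose own levels differed. With at least 3 marker UMIs and 0.3% of UMIs the rule took in 254 control and 372 Cre cells, and the log2 ratio of the shares went from 0.98 to 0.32. The yield of AT1 cells in dissociation cannot be told apart from their number in the lung, and in the sums fewer cells and less RNA per cell cannot be told apart.

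Among the genes of the rule, Ager, the receptor for advanced glycation end products, stood at 15896 CPM in control and 12003 CPM in Cre members. Hopx, a homeodomain protein of AT1 cells, stood at 9919 and 6168 CPM, and Clic5, a chloride intracellular channel protein, at 2814 and 2046 CPM. Akap5, a kinase anchoring protein, was level at 1156 and 1138 CPM, and Rtkn2 stood at 824 and 953 CPM. All 5 markers were found in 47 of 134 control and 125 of 310 Cre members.

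Stk11, the targeted gene, had 24 UMIs (80.4 CPM) in control and 34 UMIs (46.7 CPM) in Cre members, a ratio of 0.581 (0.334 to 1.02). The interval reaches 1, so at this depth counting error could not be set aside. The reads are 3′ tags and the deleted part of the gene is not given in the labels, so the level checks little. In AT2 cells the ratio was 0.628. The gene (ENSMUSG00000003068) is at 80115803 to 80130682 of chromosome 10, plus strand, in GRCm38. Of 7 measured genes of LKB1, AMPK and related kinases, 1 was higher and 2, Stk11 and Mark2, were lower by the measure defined next. The ratio of Stk11 lay between 0.517 and 0.658 under the alternatives that gave it a value, and thinning to 1000 UMIs gave none. Mark2, a polarity kinase, was lower at 111 and 67.3 CPM (0.609, 0.384 to 0.977) but at 0.741 after thinning to 1000 UMIs per cell, while Cab39, the scaffold of the LKB1 complex, stood at 238 and 216 CPM and Snrk at 60.3 and 68.7 CPM.

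Between the libraries, a gene was counted as higher or lower when its CPM ratio, Cre over control, lay at least 1.5-fold from the median ratio of all 3430 genes with 50 or more UMIs, which was 1.06, that is, at a ratio of at least 1.59 or at most 0.707. By this measure 417 genes (12.2%) were higher and 380 (11.1%) lower in Cre AT1 cells, and each list below is read against these shares. Of 93 genes named in the text as higher or lower, 42 stayed so under every alternative run, each read against its own all-gene median. The looser marker threshold is the one given above with the shares, and the stricter one asks for at least 10 marker UMIs and 1% of UMIs. With the looser marker threshold 30 came within the fold or changed sides, with cells weighted equally 22 did, and without the members with endothelial UMIs 10 did. List medians are on the log2 scale, with 5 CPM added to both levels, less the median of all genes. No p-value is given because each genotype has 1 library.

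Genes of AT1 identity outside the rule lay somewhat lower in the Cre library. Of 31 measured, 7 were lower and 1 higher, with a median of -0.29. Vegfa, the ligand of the capillary receptors VEGFR1 and VEGFR2, stood at 2807 CPM in control and 1579 CPM in Cre members, 1.78-fold lower (1.62 to 1.95). S100a6, a calcium-binding protein, stood at 7695 and 3979 CPM, 1.93-fold lower (1.83 to 2.04). Pdpn, the podoplanin of the apical membrane, stood at 998 and 669 CPM, 1.49-fold lower. Tspan8, a tetraspanin, stood at 1749 and 1054 CPM. With the looser marker threshold all 4 were within the fold, at 0.815, 0.734, 0.962 and 0.785, and with cells weighted equally Vegfa (0.7), Pdpn (0.816) and Tspan8 (0.696) were. The single higher member was Fam189a2, at 405 and 912 CPM (2.25, 1.85 to 2.75).

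Other defining genes of the cell type stayed within the fold. Aqp5, the apical water channel of AT1 cells, was at 2305 and 2272 CPM (0.986, 0.901 to 1.08). Emp2, a tetraspan membrane protein, was at 4368 and 3287 CPM, Gprc5a at 1792 and 1788 CPM, Krt7 at 1682 and 1529.5 CPM and Ndnf at 1809 and 1696 CPM. Cldn18, the main claudin of alveolar tight junctions, was at 3319.9 and 4278 CPM (1.29, 1.20 to 1.39), and Lmo7 at 1152 and 1694 CPM (1.47, 1.30 to 1.66). With the looser marker threshold the list median was 0.14, and among members of 2000 or more UMIs it was -0.48.

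Secreted growth factors and guidance cues lay lower in the Cre library. Of 16 measured, 8 were lower and 0 higher, where 11.1% of all genes were lower. The median was -0.55, and 0.01 with the looser marker threshold. Pdgfa, the ligand of PDGFRA on alveolar fibroblasts, had 958 CPM in control and 446 CPM in Cre members, 2.15-fold lower (1.83 to 2.52). In AT2 cells its ratio was 0.977. Pdgfb stood at 258 and 114 CPM, 2.26-fold lower (1.64 to 3.12), and Tgfb2 at 285 and 173 CPM, 1.65-fold lower (1.24 to 2.18). Pdgfa and Pdgfb stayed lower under every alternative run, whereas Tgfb2 was at 0.877 with the looser marker threshold.

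The 3 binding proteins of insulin-like growth factors on that list differed in size. Igfbp6 stood at 1309.9 and 383 CPM, 3.42-fold lower (2.92 to 4.0). Igfbp7 stood at 3678 and 2476 CPM, 1.49-fold lower (1.38 to 1.60), and was at 0.736 with cells weighted equally, within the fold. Igfbp2, a gene of mature AT1 cells, stood at 2167 and 1915 CPM (0.884, 0.804 to 0.972) and did not pass the fold. The guidance cues Sema3a (308 and 334 CPM) and Sema3e (827 and 787 CPM) and the ligand Wnt7a (67.0 and 56.3 CPM) were also within it. Vegfa had the reverse order in AT2 cells, at 70.2 CPM in control and 102 CPM in Cre cells, a ratio of 1.46.

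The levels of these genes depended on how deeply a cell was read, and for Igfbp2 and Aqp5 so did the order of the libraries. In members under 1000 UMIs Pdgfa stood at 401 CPM in control and 231 CPM in Cre cells, and in members of 5000 or more at 1204 and 550 CPM. Vegfa stood at 823 and 545 CPM in the shallowest and at 3903 and 1952 CPM in the deepest cells. Igfbp2 went from 843 and 1645 CPM in the shallowest to 2788 and 1898 CPM in the deepest, so that the Cre library was higher in shallow and lower in deep cells. Aqp5 likewise went from 642 and 1063 CPM to 3217 and 2735 CPM. Vegfa and Pdgfa were thus lower in the Cre library at both ends, and Igfbp2 was not.

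**Figure D2:**
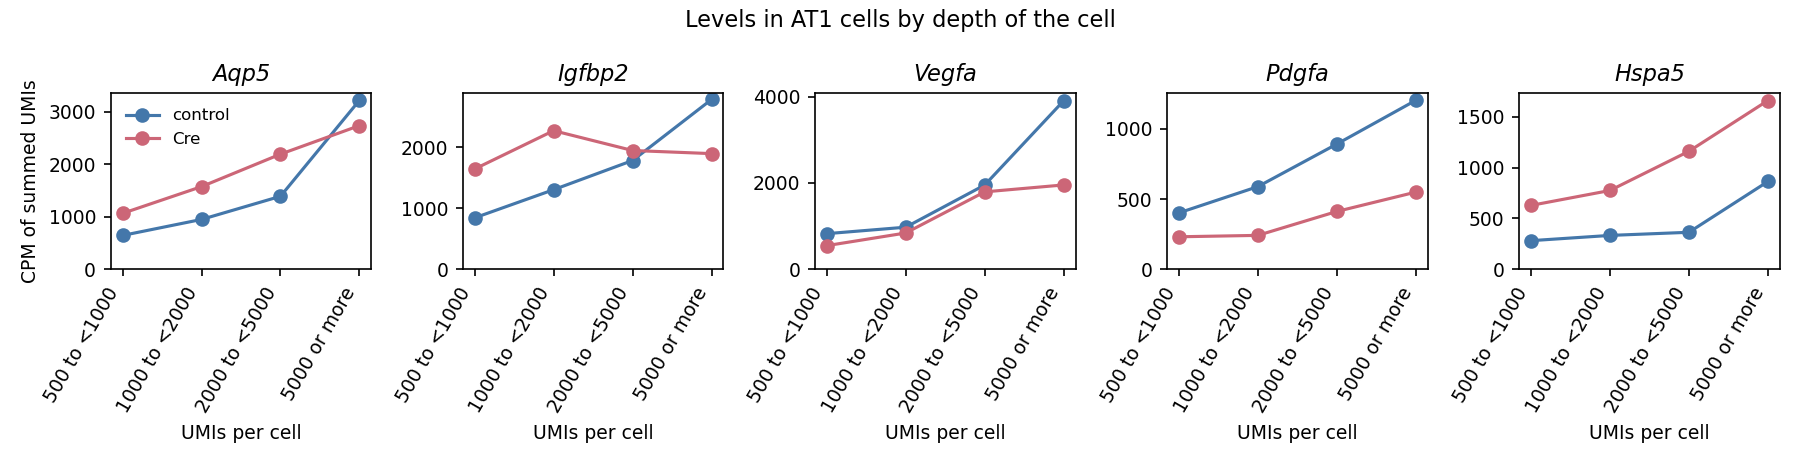
Level of 5 genes in CPM of summed UMIs (vertical axes) in AT1 cells of 4 depth ranges (horizontal axes, UMIs per cell), for the control (blue) and the Cre library (red); points are single sums without replicates. Pdgfa lies lower and Hspa5 higher in the Cre library in every range, Vegfa is lower with the widest gap in the deepest cells (3903 and 1952 CPM), and the lines of Aqp5 and Igfbp2 cross.

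Basement membrane and matrix genes stayed closer to the background. Of 18 measured, 1 was higher and 2 lower, with a median of -0.23. The lower ones were Col4a2, a chain of the common type IV collagen, at 1263 and 846 CPM (0.670, 0.588 to 0.763), and Lamb2, a laminin beta chain, at 258 and 179.9 CPM. Neither kept the call, with Col4a2 at 0.980 after thinning to 1000 UMIs per cell and Lamb2 at 0.871 with the looser marker threshold. Col4a1, which pairs with Col4a2, was at 1259.6 and 1071 CPM. Col4a3 and Col4a4, chains of the network typical of the alveolar wall, stood at 1196 and 876 CPM and at 1223 and 989 CPM. Npnt, the integrin ligand nephronectin, was level at 901 and 957 CPM.

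Genes of caveolae differed in part. Of 17 genes of caveolae and junctions, 4 were lower and 1 higher, and all 4 lower ones belonged to caveolae. Cav1, the main caveolin, stood at 1441 and 964 CPM, 1.49-fold lower (1.32 to 1.69), and its partner Cav2 at 657 and 408 CPM, 1.61-fold lower (1.34 to 1.93). The coat proteins Cavin2 (1571 and 1096 CPM) and Cavin3 (171 and 97.5 CPM) were 1.43-fold and 1.75-fold lower, while Cavin1, also a coat protein, was level at 539 and 537 CPM (0.995, 0.826 to 1.20). With the looser marker threshold Cav1 (0.759), Cavin2 (0.727) and Cavin3 (0.805) were within the fold. The ratio of Cav1 was 0.879 when each cell counted equally, within the fold. Endothelial cells also carry caveolae, and without the members that held endothelial UMIs the ratios of Cav1 and Cav2 were 0.665 and 0.597. YAP and TAZ genes were near the background, with 1 higher and 2 lower of 12 and a median of 0.07. Their targets parted: Cyr61, a matricellular protein, was higher at 399 and 880.1 CPM (2.21, 1.81 to 2.71), Ctgf was at 409 and 472 CPM, and Ankrd1 was lower at 134 and 41.2 CPM, 3.25-fold (1.98 to 5.41).

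**Figure D3:**
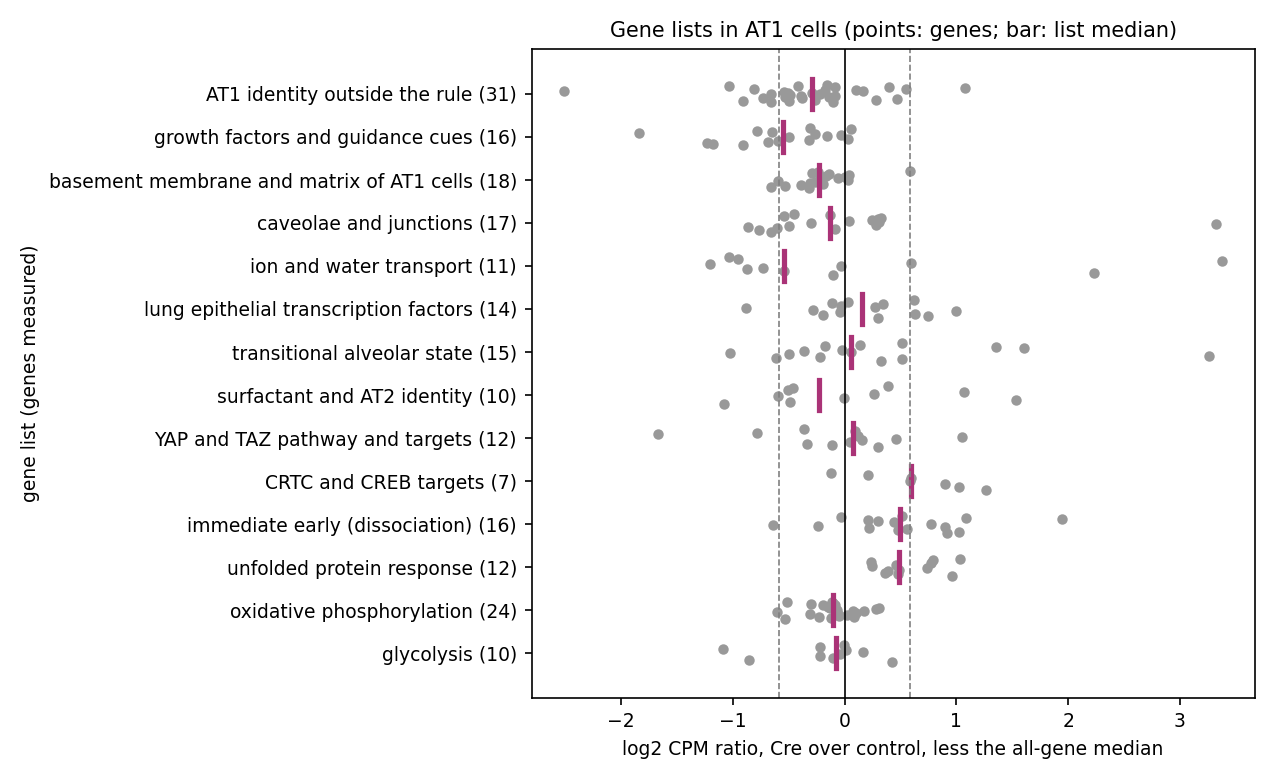
Log2 ratio of CPM, Cre over control, less the all-gene median (horizontal axis), for the measured genes (grey points) of 14 lists (vertical axis, with the number of genes measured); bars are list medians and dashed lines the 1.5-fold limits. Growth factors and guidance cues have a median of -0.55 and ion and water transport of -0.54. The unfolded protein response has a median of 0.49 with all of its points above 0.

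Ion and water transport genes split. Of 11 measured, 3 were higher and 5 lower, with a median of -0.54, and -0.097 with the looser marker threshold. The lower ones included 2 of the 3 subunits of the epithelial sodium channel: Scnn1b stood at 446 and 255 CPM, 1.74-fold lower (1.39 to 2.19), and Scnn1g at 694 and 441 CPM, 1.57-fold lower (1.31 to 1.88), while Scnn1a was at 797 and 578 CPM (0.725, 0.617 to 0.854) and within the fold. Clic3, a chloride intracellular channel protein, stood at 1658 and 905 CPM, 1.83-fold lower (1.63 to 2.06). Atp1b1, the beta subunit of the sodium pump, stood at 164 and 72.8 CPM, and Car2, a carbonic anhydrase, at 87.1 and 42.6 CPM. With the looser threshold Scnn1b (0.827), Scnn1g (0.912), Clic3 (0.789) and Atp1b1 (0.838) were within the fold, and Car2 stayed lower.

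The 3 higher transport genes included 1 that was nearly missing from control AT1 cells. Kcne2, an accessory subunit of potassium channels, had 3 UMIs in control and 117 in Cre members, or 10.1 and 161 CPM, 16.0-fold higher (5.34 to 78.6). Aqp1, a water channel best known from endothelium, had 124 and 637 CPM, 5.14-fold higher (3.67 to 7.39). Slc12a2, the basolateral sodium, potassium and chloride cotransporter, was at 111 and 179.9 CPM (1.63, 1.10 to 2.46), and within the fold with the stricter marker threshold (1.48). Kcne2 (ENSMUSG00000039672) is at 92292389 to 92298129 of chromosome 16, plus strand.

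Because most members were shallow, cells of at least 2000 UMIs were looked at one by one, 30 in control (median 8059.5 UMIs) and 81 in Cre (median 6233 UMIs). Kcne2 was held by 2 of 30 control cells, against 43 of 81 Cre cells, that is 6.67% (0.818 to 22.1) and 53.1% (41.7 to 64.3). Aqp1 was found in 5 and 62 cells. Slc38a4, a transporter of neutral amino acids, was found in 0 of 30, which allows a share of up to 11.6%, and in 32 of 81 (39.5%). Cldn3, a tight junction claudin that is abundant in AT2 cells, was found in 2 and 36 cells. Ramp1, the partner of the CGRP receptor, was found in 2 and 44, Ociad2 in 4 and 38, Wfdc1, a secreted protein with a whey acidic protein domain, in 6 and 53, and Sfn, the 14-3-3 sigma protein of keratinocytes, in 1 and 23. The control cells were the deeper ones by median, and the part of depth in these shares was not tested.

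**Figure D4:**
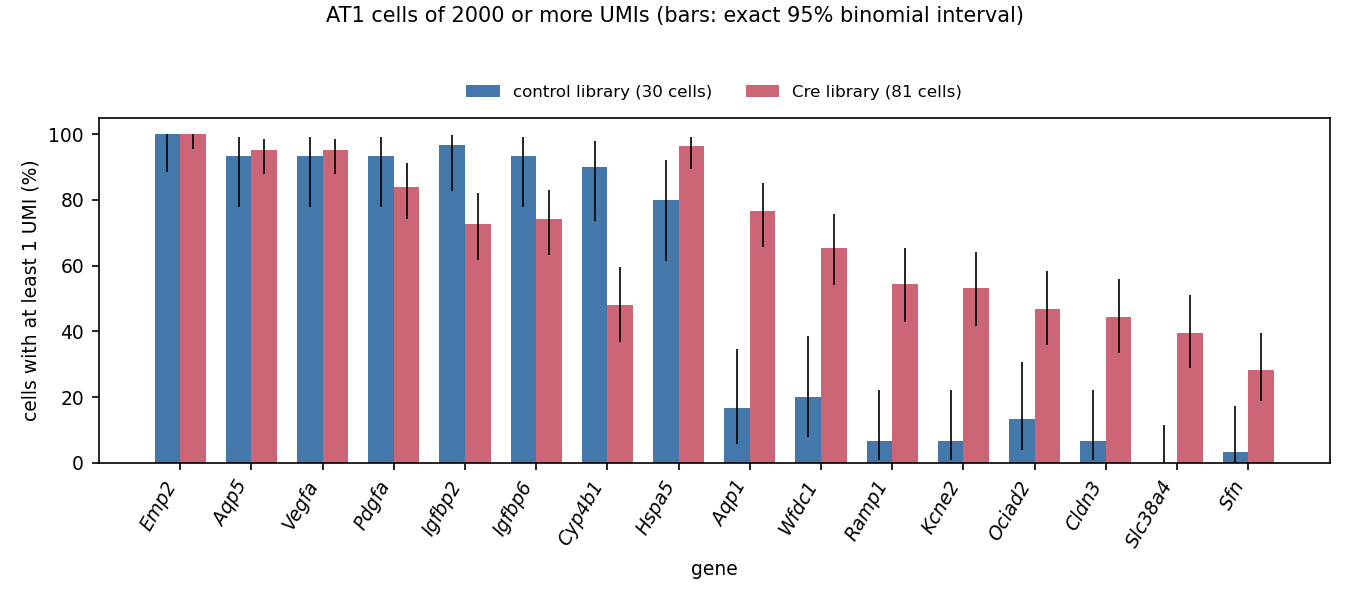
Percentage of AT1 cells of 2000 or more UMIs with at least 1 UMI of 16 genes (horizontal axis), in the control (blue, 30 cells) and Cre library (red, 81 cells); error bars are exact 95% binomial intervals. Emp2 was found in all cells of both libraries, Cyp4b1 in 27 control and 39 Cre cells, and Kcne2 in 2 and 43.

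Summed levels of these genes over all members gave the same order. Slc38a4 had 0 UMIs in control and 60 in Cre members (82.4 CPM), at least 8.20-fold higher against a floor of 3 UMIs in the control sum. Cldn3 had 3 and 113 UMIs, 15.4-fold higher (5.15 to 76.0). Ramp1 had 5 and 97 UMIs, 7.95-fold (3.29 to 25), and Ociad2 7 and 93, 5.45-fold (2.54 to 13.9). Sfn had 1 UMI in control and 58 in Cre members, a ratio of 23.8 (4.10 to 955). Of those 58 UMIs 27.6% lay in 1 cell. Without each library's top barcode no control UMI was left, so the ratio of 5.74 there is a lower bound against the floor of 3 UMIs. After thinning, Sfn was held by 1.64% (0.0415 to 8.80) of control and 5.96% of Cre members, and by 4.97% and 4.57% of B cells. The share in Cre members was thus near that of B cells. The share in control members lay below it, with a wide interval, so whether B cells give the free RNA level of Sfn was not tested. B cells held little of Kcne2 (1.07 and 2.64 CPM) and of Slc38a4 (0.475 and 3.39 CPM), and Cldn3 was level in them at 11.4 and 10.9 CPM. AT2 cells carried Cldn3 at 446 and 516 CPM and Ramp1 at 204 and 218 CPM, ratios of 1.16 and 1.07. Slc38a4 was 8.35-fold higher in Cre AT2 cells too, and was on a list chosen from those cells of these libraries. After each cell was thinned to 1000 UMIs, Cldn3 was held by 0 of 61 control members and by 9.27% of 151 Cre members. Kcne2 was held by 0 of 61, which allows up to 5.87%, and by 11.9%. The 73 control and 159 Cre members under 1000 UMIs were left out of that count, and before thinning the shares over all members were 2.24% and 12.6% for Cldn3 and 2.24% and 18.7% for Kcne2. The thinned sums put the ratios at no less than 2.69 for Cldn3 and 2.56 for Kcne2 as lower bounds, against a floor of 3 UMIs in the thinned control sum.

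Further genes were named by the rule as higher and at least as abundant in AT1 as in AT2 cells. Tshz1, a zinc finger transcription factor, stood at 67.0 and 229 CPM (3.42, 2.15 to 5.75). Dnaja1, a cochaperone of HSP70, stood at 161 and 448 CPM (2.78, 2.05 to 3.85), and Bcar3, an adaptor of integrin signalling, at 63.7 and 183 CPM (2.87, 1.77 to 4.92). Wfdc1 stood at 33.5 and 174 CPM (5.21, 2.74 to 11.1). Cckar, the cholecystokinin A receptor, had 5 UMIs in control and 59 in Cre members (4.84, 1.96 to 15.4). After thinning, 0 of 61 control members held it, so its ratio of 2.29 there is a lower bound against the floor of 3 UMIs. Among genes more abundant in AT2 cells, Dhrs3, a retinaldehyde reductase, was 4.35-fold (2.46 to 8.38) and Phlda1 3.59-fold (2.37 to 5.67) higher, but with the looser marker threshold their ratios were 1.48 and 1.21, within the fold. Phlda1, Tshz1, Bcar3 and Wfdc1 were also higher in Cre AT2 cells, at ratios of 3.93, 2.93, 3.47 and 4.02, whereas Fam189a2 and Cyr61 were level there at 1.01 and 1.05. The smooth muscle genes Acta2 and Tagln met the rule too, but 91.5% and 91.1% of their Cre UMIs came from 1 cell each.

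Of the genes named as lower, Cyp4b1 encodes a cytochrome P450 monooxygenase. It had 928 CPM in control and 169 CPM in Cre members, 5.49-fold lower (4.43 to 6.85), and its ratio lay between 0.171 and 0.211 under each alternative that was run. In cells of 2000 or more UMIs 27 of 30 control cells held it, and 39 of 81 Cre cells did. Its ratio was 0.441 in AT2 cells, from 11.6 CPM in control cells, and 0.616 in endothelial cells, and in AT1 cells it was 0.172 without the members that held endothelial UMIs. Cyp4b1 (ENSMUSG00000028713) is at 115624725 to 115647723 of chromosome 4, minus strand. Btg3, an antiproliferative protein, stood at 131 and 37.1 CPM (3.52-fold lower, 2.1 to 5.99), Abca1, the cholesterol exporter, at 221 and 71.4 CPM (3.1-fold, 2.12 to 4.54), and Gpm6a, a membrane glycoprotein, at 201 and 54.9 CPM (3.66-fold, 2.41 to 5.60). Rnase4, a secreted ribonuclease, stood at 811 and 423 CPM, 1.92-fold lower, and was at 0.735 with the looser marker threshold. Selenop, the selenium transporter of plasma, was 1.73-fold lower (1.29 to 2.33) and Creg1 1.68-fold lower (1.20 to 2.33), but the ratio of Selenop was 0.981 without the members that held endothelial UMIs and 1.11 in members of 2000 or more UMIs, and that of Creg1 was 1.29 with cells weighted equally.

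A further group of the lower named genes is characteristic of endothelium, and part of it changed when the members that held endothelial UMIs were left out. Cldn5, the endothelial claudin, had 419 and 145 CPM in members against 3148 and 2241 CPM in endothelial cells. Ramp2, the partner of the adrenomedullin receptor, had 225 and 49.4 CPM in members against 2239 CPM in control endothelial cells. Icam2, an adhesion molecule, had 137 and 31.6 CPM in members against 943 CPM there. Hpgd, the enzyme that degrades prostaglandins, had 211 and 68.7 CPM against 1485 CPM, and Gng11, a G protein subunit, 158 and 45.3 CPM against 781 CPM. Without the members that carried endothelial UMIs the ratio of Ctla2a went from 0.239 to 2.44 and that of Cd36, a fatty acid receptor, from 0.479 to 1.41. That of Cldn5 went from 0.348 to 0.997, but Cldn5 is among the genes by which those members were set apart, so its change supports nothing. Ramp2 (0.426), Icam2 (0.130) and Gng11 (0.356) stayed lower. With the stricter marker threshold Icam2 was at 0.807, and in members of 2000 or more UMIs Hpgd was at 0.719. Ccl21a, a chemokine of lymphatic endothelium, had 104 UMIs in control members, 91.3% of them in 1 cell. Aqp1, also an endothelial gene, went the other way, and its ratio without those members was 13.2. With the looser marker threshold its ratio was 0.987.

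**Figure D5:**
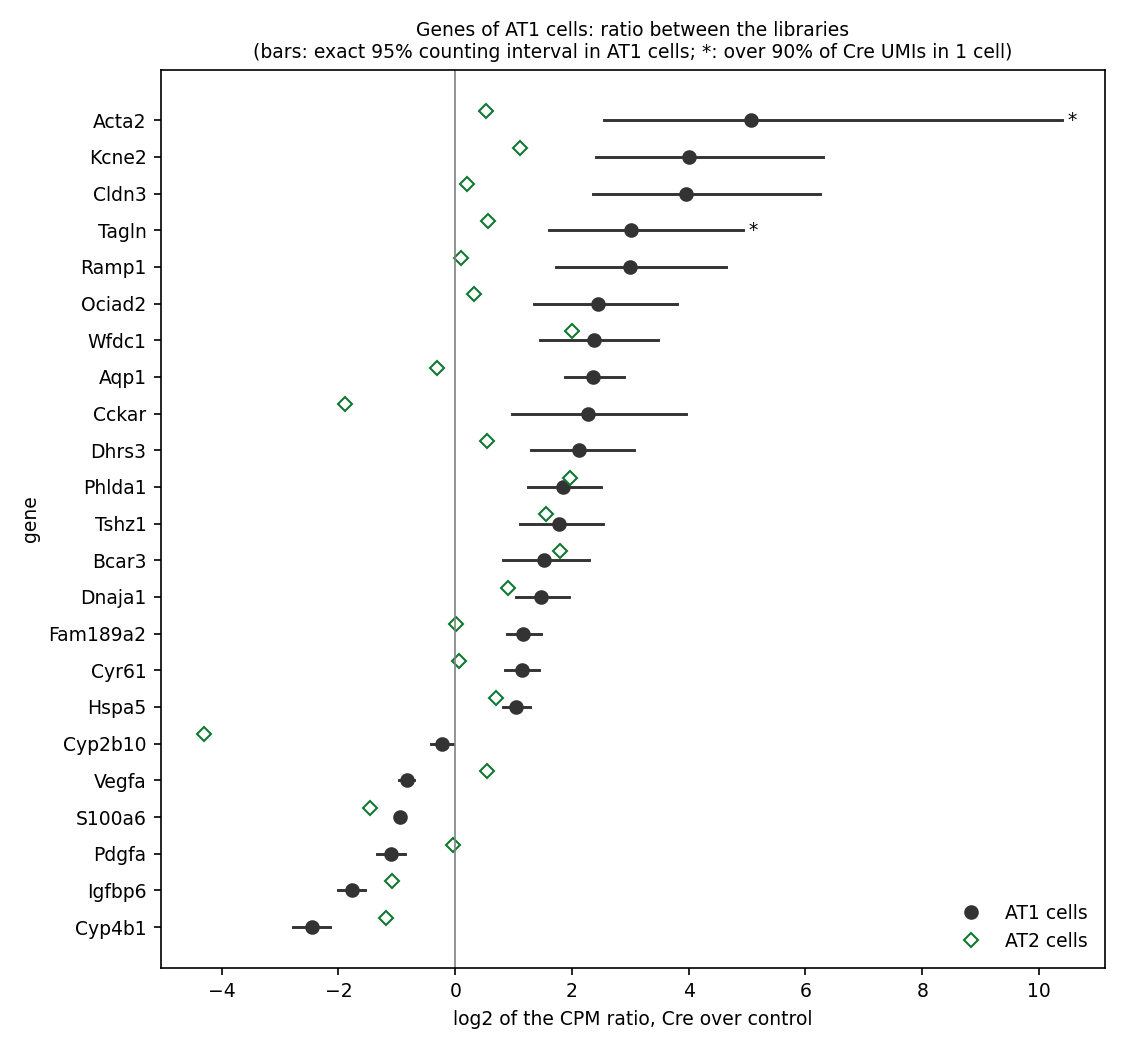
Log2 of the CPM ratio, Cre over control (horizontal axis), of 23 genes (vertical axis) in AT1 cells (filled circles, with exact 95% counting intervals) and in AT2 cells (open diamonds, without interval). Kcne2, Cldn3 and Ramp1 lie far to the right in AT1 cells, with ratios of 16.0, 15.4 and 7.95, while Cldn3 and Ramp1 lie near 0 in AT2 cells. Cyp2b10 is the reverse, far to the left in AT2 cells (0.0506) and near 0 in AT1 cells (0.854). Acta2 and Tagln carry a star because over 90% of their Cre UMIs came from 1 cell.

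Some genes of the unfolded protein response, which adjusts protein folding in the endoplasmic reticulum, were higher in Cre AT1 cells. Of 12 measured genes of the unfolded protein response, 5 were higher and 0 lower, with a median of 0.49, and all 12 lay above the all-gene median. Hspa5, the chaperone BiP that keeps the stress sensors inactive, stood at 647 CPM in control and 1336 CPM in Cre members, 2.07-fold higher (1.77 to 2.42). Manf, a secreted reticulum protein, stood at 198 and 435 CPM (2.20, 1.66 to 2.96), Herpud1, a component of protein degradation at the reticulum, at 114 and 213 CPM (1.87, 1.28 to 2.79), and Xbp1, a transcription factor of the response, at 80.4 and 146 CPM (1.81, 1.15 to 2.95). These 4 stayed higher under every alternative run, and Atf3, the fifth, did not. The chaperones and isomerases Hsp90b1 (1.48), Calr (1.5), Pdia6 (1.4) and Pdia4 (1.39) were within the fold. Under the alternatives the list median ranged from 0.47 to 0.71. In cells of 2000 or more UMIs the list took a median of 0.306% of a control cell's UMIs, with quartiles of 0.214% and 0.405%, and 0.488% of a Cre cell's, with quartiles of 0.386% and 0.662%.

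Hspa5 was also higher in the sums of the other Cre cells. Its ratio was 1.62 in AT2, 1.77 in endothelial and 1.59 in B cells, which do not derive from the Nkx2-1 lineage. After thinning, however, the share of B cells that held Hspa5 was nearly level, at 24.5% in control and 26.9% in Cre cells. That share went from 26.2% to 57.0% in AT1 members and from 31.0% to 44.9% in AT2 cells. Whether Hspa5 differed in cells that the driver does not target was not tested, nor was a difference between cell types.

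Promoters of some of these genes carry a known reticulum stress element, shown here because the list median stayed at 0.47 or more under each alternative. RefSeq promoters (GRCm38.p6) were searched over the 250 bases before the start on both strands for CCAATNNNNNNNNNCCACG, which occurred in 37 of 32851 promoters (0.113%). Of the 12 measured genes 11 had an entry, and 4 of these held a match: Hspa5, which was past the fold, and Hsp90b1, Pdia6 and Calr, which were not. Hsp90b1 held 2 matches, and only the one nearest the start is shown. In Hsp90b1 and Calr the match shown reads on the opposite strand. The windows follow, 5′ to 3′ in the direction of the gene, with the match in capitals.
Hspa5: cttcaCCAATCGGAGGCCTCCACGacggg
Hsp90b1: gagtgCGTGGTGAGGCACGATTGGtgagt
Pdia6: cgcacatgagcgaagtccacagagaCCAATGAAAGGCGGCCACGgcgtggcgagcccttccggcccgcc
Calr: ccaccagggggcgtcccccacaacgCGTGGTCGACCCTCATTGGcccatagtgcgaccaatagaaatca
They lie at chr2:34772020-34772048 on the plus strand, chr10:86705528-86705556 on the minus strand, chr12:17266466-17266534 on the plus strand and chr8:84847050-84847118 on the minus strand. Read in the direction of the gene, the match shown begins 65, 107, 98 and 162 bases before the RefSeq start. For Hspa5 the GENCODE gene starts further upstream, at 34771970, so its window lies inside that annotated gene. A match is a description of the letters and no measure of binding.

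Targets of CRTC and CREB were higher in the sum but not with all members weighted equally. Of 7 measured, 5 were higher and 0 lower, with a median of 0.60. With each cell counted equally the median was -0.03, and in members of 2000 or more UMIs it was 1.03. In those deep members the list took a median of 0.0766% of a control cell's UMIs, with quartiles of 0.0377% and 0.164%. In Cre cells it took 0.124%, with quartiles of 0.0721% and 0.238%. Nr4a1, a nuclear receptor, stood at 63.7 and 170.3 CPM (2.67, 1.64 to 4.59), and its ratio over equally weighted cells was 0.939. Fosb stood at 104 and 229 CPM (2.21, 1.5 to 3.35), and Pde4b, which degrades cyclic AMP, at 50.3 and 104 CPM (2.08, 1.18 to 3.89). Sik1 (1.68, 0.828 to 3.76) and Per1 (1.67, 0.918 to 3.24) had intervals that reach 1, and Dusp1 (1.22) and Id1 (0.971) were within the fold. None of the 5 higher genes kept the call under every alternative: Fosb was at 0.682 with the looser marker threshold, Pde4b at 1.13 and Sik1 at 0.943 after thinning, and Per1 at 0.709 with cells weighted equally. In cells of 2000 or more UMIs 7 of 30 control cells held Nr4a1, and 33 of 81 Cre cells did.

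The 5 of these 7 genes with a promoter entry, Nr4a1, Fosb, Pde4b, Per1 and Dusp1, each held TGACG, the core of the cyclic AMP response element, which 17.8% of all promoters hold on either strand. The full palindrome TGACGTCA, found in 1.55% of promoters, was in Dusp1 alone of the 5, where the gene's level was within the fold. Its window, on the minus strand at chr17:26508603-26508620, is shown with that of Fosb, at chr7:19310076-19310130 on the minus strand, with the match in capitals.
Dusp1: gcgggTGACGTCAccgcc
Fosb: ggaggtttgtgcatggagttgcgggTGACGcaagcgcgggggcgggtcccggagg

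The immediate early genes that dissociation induces behaved alike, and some are shared with the list above. Of 16 measured, 6 were higher and 1 lower, with a median of 0.50, which went to -0.60 with the looser marker threshold and to 0.94 in members of 2000 or more UMIs. Fos stood at 302 and 607 CPM (2.01, 1.60 to 2.55) and was 0.947 after thinning. Hspa1b, an inducible HSP70, had 6 UMIs in control and 71 in Cre members (4.85, 2.12 to 13.7), and was at 1.10 with the looser marker threshold. Atf3, on this and on the unfolded protein list, stood at 114 and 210.1 CPM (1.84, 1.27 to 2.76) but was 0.804 with cells weighted equally. Ier3 was the lower one, at 1474 and 1002 CPM, and was within the fold with the stricter marker threshold (0.731). Endothelial cells had lower Fos in the Cre library (ratio 0.528) and B cells were level (0.945). Whether handling moved these genes was not tested.

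Of 14 lung epithelial transcription factors measured, 4 were higher and 1 lower, with a median of 0.15. Klf5, a factor of AT1 lineage commitment, stood at 83.8 and 183 CPM (2.18, 1.41 to 3.49), Sox4 at 157 and 284 CPM (1.81, 1.31 to 2.53), Foxa2 at 100.5 and 168 CPM (1.67, 1.11 to 2.58) and Foxp2 at 43.6 and 74.1 CPM (1.70, 0.917 to 3.40). Klf5 stayed higher under every alternative run, whereas Sox4 was at 1.20 and Foxa2 at 1.5 with cells weighted equally, and Foxp2 at 1.17 in members of 2000 or more UMIs. Nkx2-1 itself was at 245 and 321 CPM (1.31, 1.01 to 1.73). Cebpd, a factor induced by steroids and inflammation, was lower at 198 and 111 CPM, 1.78-fold (1.25 to 2.52), but without the members that held endothelial UMIs its ratio was 0.780, within the fold. Sox9, a factor of distal lung progenitors, had 0 UMIs in control and 6 in Cre members, found in 3 cells.

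The keratins and other genes of the transitional state between AT2 and AT1 did not move as a group. Of 15 measured, 3 were higher and 2 lower, with a median of 0.06. Krt8 stood at 549 and 729 CPM (1.33, 1.11 to 1.59), Krt18 at 278 and 423 CPM (1.52, 1.19 to 1.96) and Krt19 at 757 and 523 CPM (0.691, 0.585 to 0.818), level at 0.993 with the looser marker threshold. Beside Sfn, the secreted chaperone Clu was higher at 63.7 and 181 CPM (2.85, 1.75 to 4.88), but its ratio with the looser threshold was 1.22, within the fold.

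Surfactant and AT2 genes were low in members of both libraries, with 2 higher and 2 lower of 10 and a median of -0.23. Sftpd, a collectin of surfactant, stood at 50.3 and 165 CPM (3.28, 1.91 to 6.04), and Napsa, the protease that processes surfactant protein B, at 43.6 and 103 CPM (2.36, 1.30 to 4.65). Sftpa1 was lower at 235 and 115 CPM, with 38.6% of its control UMIs in 1 cell, and its ratio was 1.34 with the looser marker threshold. After thinning, 0 of 61 control and 9.93% of Cre members held Sftpd, against 1.95% and 4.69% of B cells. Napsa was held by 3.28% and 9.93% of members and by 28.2% and 22.2% of B cells. Members lay below B cells in both libraries, so B cells give no background level for Napsa. Whether its level in AT1 cells lay above free RNA was not tested, and with cells weighted equally its ratio was 1.48.

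The deep Cre members were not uniform in these genes. Igfbp2 had 0 UMIs in 22 of 81 Cre cells of 2000 or more UMIs (27.2%, 17.9 to 38.2) and in 1 of 30 control cells (3.33%, 0.0844 to 17.2). These 22 cells were as deep as the other 59, with medians of 6325 and 6100.0 UMIs. They held 471 CPM of Cldn3 and 548 CPM of Sftpd, against 110 and 65.4 CPM in the other 59, and Cldn3 was found in 17 of 22 and 19 of 59. Sftpc, which the rule limits, stood at 2831 and 562 CPM. Vegfa was at 1222 CPM in the 22 and 2189 CPM in the 59, and Pdgfa at 323 and 604 CPM. Aqp5 (2592 and 2670.3 CPM) and Emp2 (3617 and 3573 CPM) were level between them, and Kcne2 was found in both, at 155 and 209 CPM. The split was chosen after the values were seen and groups cells by a gene that differs with depth, so it is a description of 1 library. In the 59 Cre cells that held Igfbp2, Cldn3 and Kcne2 were still at 110 and 209 CPM, against 9.67 and 9.67 CPM in the 29 control cells that held it.

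Genes picked from the AT2 cells of these same libraries gave mixed values in AT1 cells. Of 11 genes raised in Cre AT2 cells, 3 were measured and all 3 were higher, but the list was chosen on these libraries. Gclc, of glutathione synthesis, stood at 30.2 and 76.9 CPM (2.55, 1.25 to 5.86). Retnla, a secreted protein of type 2 responses, had 2 and 104 UMIs. After thinning it was found in 13.9% of Cre AT1 cells and 14.1% of Cre B cells. Over all cells of each kind the median depths before thinning were 966.5 and 2133 UMIs. Chil3 was found in 15.9% of Cre AT1 and 21.9% of Cre B cells. Whether the level of either gene in AT1 cells lay above free RNA was not tested. Cyp2b10, a cytochrome P450, was at 58.8 and 2.98 CPM in AT2 cells, a ratio of 0.0506, and at 1156 and 987 CPM in AT1 cells, a ratio of 0.854 (0.750 to 0.974). In deep cells 25 of 30 AT1 cells of the control held it, as did 65 of 81 of the Cre library.

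Energy metabolism lay at the background. Of 24 genes of oxidative phosphorylation 0 were higher and 1 lower (median -0.11), and of 10 glycolytic genes 0 were higher and 2 lower (median -0.08), namely Eno1 (107 and 50.8 CPM) and Pfkp (97.2 and 54.9 CPM). Of 11 genes of glutathione and NRF2, 1 was higher and 2 lower, among them Prdx6, a peroxidase with phospholipase activity, at 4064 and 2679 CPM, and at a ratio of 0.937 with the looser marker threshold. Fatty acid and sterol genes had 2 higher and 0 lower of 6, and Hmgcs1, the sterol synthase, stood at 33.5 and 108 CPM (3.24, 1.67 to 7.01).

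Immune and growth lists gave few calls. MHC class I had 1 higher and 2 lower of 7, with B2m at 1307 and 883 CPM, lower by the fold but at 0.762 with the stricter marker threshold. MHC class II had 1 higher of 3, Cd74, at 328 and 699 CPM (2.13, 1.71 to 2.67), with 44.9% of its control UMIs in 1 cell. Interferon-induced genes had 2 higher and 1 lower of 6. Ifit1, at 63.7 and 133 CPM, was among the higher ones. The NF-kB list had 2 higher and 2 lower of 7, and both lower ones, Cxcl2 and Il1b, had 85.2% and 89.2% of their control UMIs in 1 cell. Of 7 targets of p53, 1 was higher and 2 lower, and of 4 measured cell cycle genes 0 were higher and 0 lower. The nuclear RNA Malat1, a sign of how much nuclear RNA a barcode holds, stood at 41409.8 and 28303 CPM in members, and at 59927 and 39253 CPM in those of 5000 or more UMIs. Its part in the other differences was not tested.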

How the data were processed

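Libraries of lung cells were made with 3′ v3 droplet kits (10x Chromium), per the labels' protocols. The authors deposited UMI counts for each gene and barcode as whole numbers, without normalization, per the file headers. Cell Ranger 3.1.0, STAR and the build mm10 are named in the submitters' processing notes. Software version 3.0.0 stands in the header of each matrix. The annotation and any barcode filter are not given in the sources used.

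The control library held 13587 barcodes with 74219499 UMIs and the Cre library 16821 with 81598779. A cell needed at least 200 genes, at least 500 UMIs and a mitochondrial share of no more than 20%. Free RNA was left in. Comparator cells (AT2, club, ciliated, B, endothelial) were picked by marker rules of the same kind. Scrublet (scanpy 1.11.5, rate 0.06) called 3.90% of control and 3.26% of Cre barcodes doublets.

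UMIs of the members were summed per library and given as CPM of that sum. Ratios carry the exact conditional 95% interval of 2 Poisson counts, shares the Clopper-Pearson interval (scipy 1.17.1). PCR duplicates are removed by the UMIs, and the intervals cover counting error only. The calculation was tested on simulated counts.

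Genes were named by a rule: at least 50 UMIs over both libraries, at least 50 CPM and at least 2 times the CPM of B cells in the higher library, ranked by the interval bound nearest 1. The 12 highest and 12 lowest were taken among genes at least as high in AT1 as in AT2 cells, and the 6 highest and 6 lowest among the others. Mitochondrial, ribosomal, haemoglobin, immunoglobulin, receptor, predicted, sex-linked, rule and dissociation genes were left out of the ranking. Members of 26 gene lists could be named as examples. The members and lists were chosen with earlier results of these data known. Alternatives varied the rule, the depth of cells, their weighting, the scaling, the minimum and the pseudocount. The use of members of 2000 or more UMIs, the removal of each gene's top barcode and the split by Igfbp2 were chosen after seeing the data. Of 31053 genes, 30934 matched GENCODE M21 (GRCm38) by identifier, the source of gene coordinates.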

Additional observations from a re-analysis of the deposited data

Results flagged for a closer look

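For 5 genes that were named or used as examples, the ratio of Cre over control lay past 1.5-fold in opposite directions in AT1 and AT2 cells. The difference between the cell types was not tested, since each genotype has 1 library. Cckar had a ratio of 4.84 in AT1 cells and 0.270 in AT2 cells, where it stood at 7.18 and 1.93 CPM. Napsa had 2.36 and 0.623, but with cells weighted equally its ratio in AT1 cells was 1.48. After thinning, B cells held Napsa more often (28.2% and 22.2%) than AT1 members (3.28% and 9.93%), so B cells give no background level for it. Cebpd had 0.563 in AT1 cells and 2.38 in AT2 cells, where it went from 159 CPM in control to 379 CPM in Cre cells, but without members that held endothelial UMIs its ratio in AT1 cells was 0.780, within the fold. Pfkp had 0.565 and 2.47. Cxcl2 had 0.111 and 3.90, and its ratio in AT1 cells was 0.649 without the barcode that held most of its UMIs in each library.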

How the results depend on the processing

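No paired analysis was possible because each genotype has 1 library, and no replicate could be left out. The log2 ratio of the share of AT1 cells was 0.98, and 0.32 with the looser marker threshold. The count of higher genes was 417 of 3430, and 80 of 699 with each cell at 1000 UMIs, 654 with cells weighted equally and 1067 of 6332 with a minimum of 20 UMIs. The count of lower genes was 380, and 699 of 4375 with the looser threshold, 71 of 699 with each cell at 1000 UMIs and 943 with a minimum of 20 UMIs. The thinned and 20 UMI settings test fewer and more genes. Of 93 named genes past the fold, 79 kept the sign of their log2 ratio in all alternatives run, and 42 stayed past the fold in all of them. The call ended for 30 with the looser threshold, 22 with cells weighted equally, 15 with each cell at 1000 UMIs, 10 without members with endothelial UMIs, and for 9 or fewer in each other setting. With the looser threshold the log2 ratio was -0.019 for Aqp1, -1.14 for Atf3, -0.66 for Fos, -0.55 for Fosb and 0.42 for Sftpa1. With the stricter threshold it was 1.44 for Cd36, 0.048 for Cldn5 and 0.74 for Ctla2a, and without members with endothelial UMIs 0.50 for Cd36 and 1.29 for Ctla2a. With each cell at 1000 UMIs it was -0.045 for Atf3, -0.079 for Fos and -0.085 for Sik1. With cells weighted equally it was -0.32 for Atf3, 0.36 for Creg1, -0.090 for Nr4a1 and -0.50 for Per1, and the median of the CRTC and CREB targets was -0.027. It was 0.17 for Il1b without its top barcode and 0.15 for Selenop in members of 2000 or more UMIs. The cause of these changes was not tested. With 73 control and 159 Cre members under 1000 UMIs, genes of low level could not be compared in single shallow cells, and 134 control cells limit every ratio.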
